A study of Mus musculus with 4 samples.

Results

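The genes described here are 45 cyclins, cell cycle kinases, checkpoint genes and genes of S phase and mitosis, taken as a list of gene symbols. Spots listed with 1 of these symbols were found for 44 of the 45 genes, among 19087 genes in all. No spot is listed for Ccnb1 alone, so its ratio is not analysed here. The 44 genes have 104 spots, and the spots of a gene were averaged on each array. Each of 4 two-colour arrays held RNA of 1 culture with mtB6 and 1 with mtBALB mitochondria, labelled in opposite dyes. Both are cybrids, cells that join a nucleus and cytoplasm of different origin so that lines differ in mitochondrial DNA. Per the labels, LMEB3(mtB6) fibroblasts carry C57BL/6J (B6) mitochondria and serve as the wild type control, and LMEB3(mtBALB) fibroblasts carry BALB/cJ (BALB) mitochondria and are called mutant. All cultures were at passage 3 in DMEM with 4.5 g/L glucose and 10% FBS. The replicates are named biological, and the series speaks of independent clones without saying which replicate is which clone, so that line and clone cannot be told apart. On replicates 1 and 3 the mtB6 RNA was in Cy5, and on replicates 2 and 4 the mtBALB RNA was. The values are the deposited log ratios between the lines, taken as log2 and assumed to run in 1 direction on all 4 arrays. It could not be settled which line was divided by the other, so positive and negative name sides of the ratio, without telling in which line a transcript was more abundant. The median over all spots lay within 0.0051 of 0 on each array.

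A dividing cell passes from G1 through DNA synthesis in S phase to G2 and mitosis. D cyclins with Cdk4 and Cdk6, and then E cyclins with Cdk2, phosphorylate the retinoblastoma protein and release E2F factors, which switch on the genes of S phase. Genes of G2 and mitosis are switched on later through the B-Myb and FoxM1 factors, and cyclins A and B with Cdk1 drive mitosis until the anaphase promoting complex destroys them. In growing fibroblasts these transcripts follow the share of cells that are cycling and their phase. In RNA of a whole culture, fewer cells in a phase and less RNA per cell cannot be told apart.

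Most of the genes had a mean ratio on the positive side, and none differed from 0 past the adjusted threshold. Of 44 genes, 39 had a positive mean over the 4 arrays, and the median of the means was 0.14, against -0.00 for all genes. The medians over the genes were 0.36, 0.11, 0.13 and 0.11 on replicates 1 to 4. Replicate 1 stood highest, and the 4 arrays lay on the same side. In limma 0 of 44 genes were called at an adjusted p under 0.05, as were 0% of all genes, and each of the 44 had an adjusted p = 0.9997. At an unadjusted p under 0.05 in limma there were 8 genes on the positive side, or 18.2% of them, against 1.59% of all genes and 2.71% of genes with a spot that was never dim. A spot was called dim on an array where at least 3 spots share its exact value. Brightness is not known, so dim names tied ratios and not a measured low signal. On the negative side there were 0 genes, against 2.05% of all genes. The 8 genes are Cip2a, Mad2l1, Ccne2, Ccna2, Cdc45, Rrm1, Ccnf and Rrm2, of which Cip2a belongs to neither phase. Members were chosen with earlier results of these data known, so their shares beside all genes are a description and not a test. The count at that p was 4 without replicate 2, of which 3 were positive, where 0.933% of all genes were positive at that p. It was 17 without replicate 3, of which 16 were positive, against 3.90% of all genes. Without replicate 4 it was 4, all positive, against 1.10%. On all 4 arrays 10 genes, or 22.7%, were positive, against 4.37% of all genes and 4.76% of genes with a never dim spot, and 0 were negative on all 4, against 4.65%. Without replicate 1 the median of the fitted means was 0.09 and 34 genes had a positive mean. The highest array was replicate 1 for 24 of 44 genes, where it was for 27.8% of all genes.

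**Figure D1:**
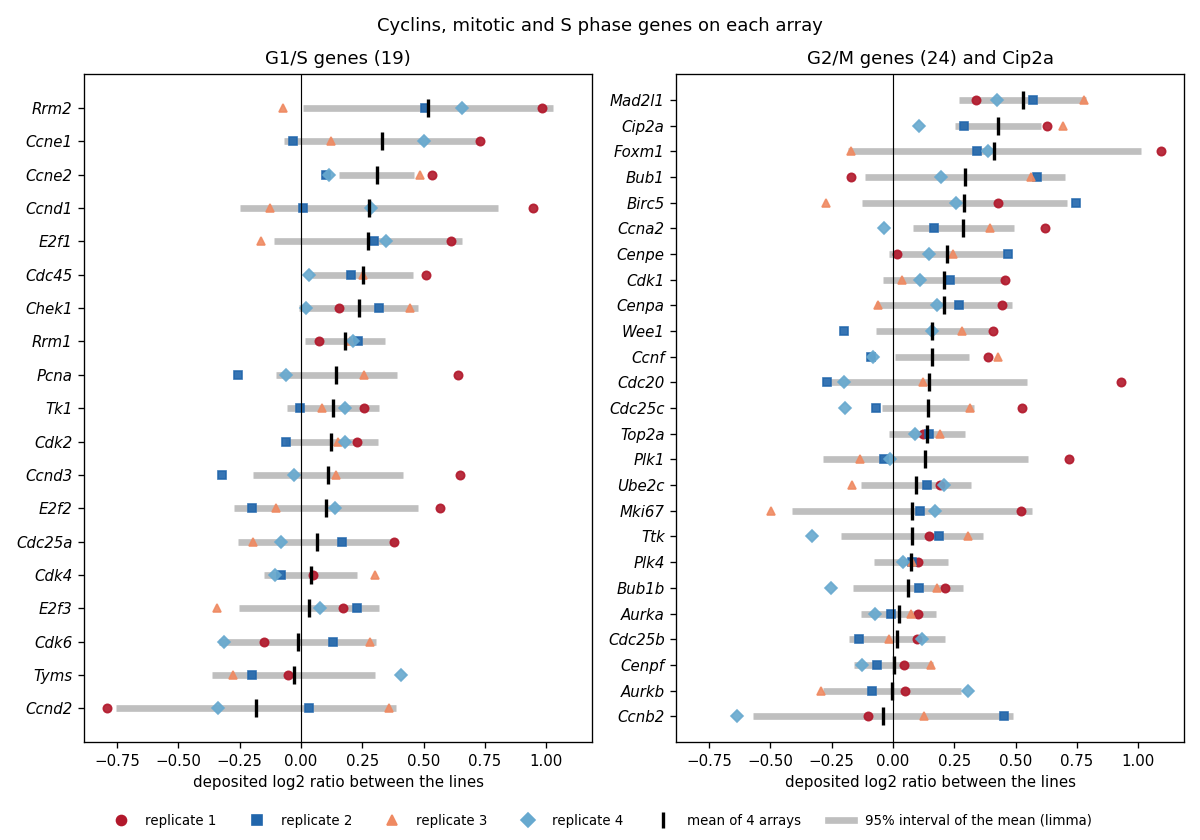
Deposited log2 ratio between the lines (x axis) of each of the 44 genes on the 4 arrays (points), with the mean (black tick) and its unadjusted 95% interval from limma (grey bar). The left panel holds 19 G1/S genes and the right panel 24 G2/M genes and Cip2a. Most ticks lie right of 0, the widest spreads are those of Foxm1, Cdc20 and Ccnd2, and Plk4 and Top2a have their 4 points close together.

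The G1/S and G2/M genes had medians on the same side on every array. The 19 G1/S genes hold D and E cyclins with their kinases, E2F factors and S phase enzymes, and the 24 measured G2/M genes hold cyclins A, B and F, mitotic kinases and the spindle checkpoint. The median of the gene means was 0.13 for G1/S and 0.14 for G2/M genes, with 16 of 19 and 22 of 24 on the positive side. On replicate 1 the G1/S median was 0.38 and the G2/M median 0.27. On replicate 2 they were 0.03 and 0.12, the reverse order. On replicates 3 and 4 the G1/S medians were 0.14 and 0.11 and the G2/M medians 0.12 and 0.10. The difference, G2/M minus G1/S, was thus -0.10, 0.09, -0.02 and -0.01 on the 4 arrays, with both signs. For the gene means it was 0.01. This comparison is a description with no test, since the genes are not replicates.

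**Figure D2:**
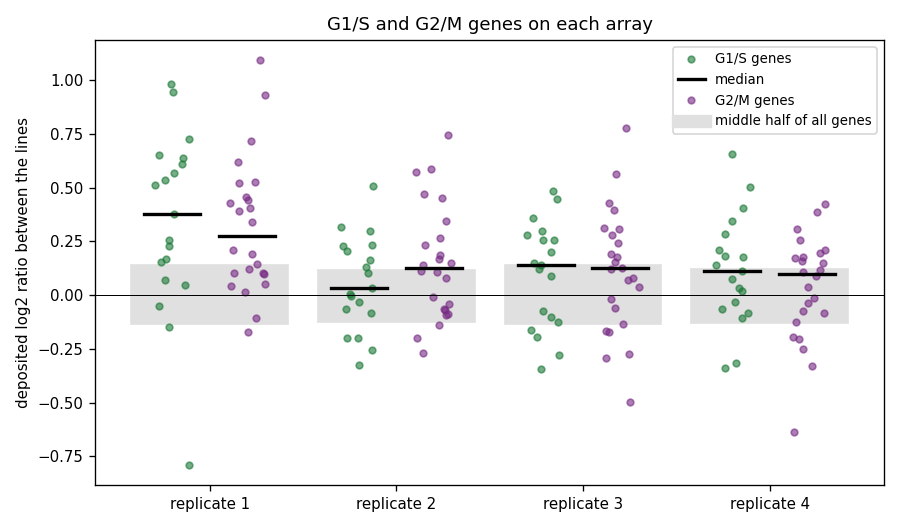
Log2 ratio (y axis) of the G1/S genes (green) and G2/M genes (purple) on each array (x axis). Each point is 1 gene, the bar is the median, and the grey band spans the first to the third quartile of all genes. Medians of both groups lie above 0 on every array and are highest on replicate 1, at 0.38 and 0.27.

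Sequence letters for cell cycle elements were more frequent in the promoters of 1 phase than of the other. RefSeq promoters (GRCm38.p6, 250 bases before to 50 after a start) were found for 37 of the 45 genes, as 40 sequences. The 16 G1/S genes matched have 19 of them, since Ccnd3, E2f2 and E2f3 have several, and the 20 G2/M genes have 20. An E2F site was searched as TTTCCCGC or TTTCGCGC or TTTGCCGC or TTTGGCGC, a CCAAT box as CCAAT, and a CHR, the element of G2/M genes that the DREAM and B-Myb complexes bind, as TTTGAA or TTCGAA. All were searched on both strands, and no match of 1 motif overlapped that of another in these 40 promoters. CHR letters were in 15 of 20 G2/M promoters (75%), in 3 of 19 G1/S promoters (15.8%) and in 17.6% of the promoters of protein coding genes. CCAAT was in 85%, 52.6% and 38.2% of them in the same order. E2F letters were in 1 of 20 G2/M promoters, in 4 of 19 G1/S promoters (21.1%) and in 2.85% of protein coding promoters. Of all 32851 promoters, 19.2% held the CHR letters, 37.4% held CCAAT and 2.26% the E2F letters. The 15 with CHR letters include Ccnb2, Ccnf, Cdc20, Plk1, Ttk, Aurka, Mki67 and Top2a. Birc5, Cenpe, Mad2l1, Plk4 and Ccnb1 are the 5 whose window does not hold them. A match is a description of letters in this window and not a bound site.

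The promoters below show these letters in the 3 genes of either phase with the largest absolute mean ratio among promoters found that hold a motif. No promoter was found for Ccnd1, Ccnd2, Ccne2, Ccna2, Cdc25c, Aurkb, Foxm1 and Wee1, so these were not searched. Capitals mark the matches. Rrm2 lies at chr12:24708004-24708303 on the + strand, Cdc45 at chr16:18811923-18812222 on the - strand and Rrm1 at chr7:102441445-102441744 on the + strand. Bub1 lies at chr2:127831810-127832109 on the - strand, Cenpe at chr3:135212313-135212612 on the + strand and Cdk1 at chr10:69352863-69353162 on the - strand.
Rrm2: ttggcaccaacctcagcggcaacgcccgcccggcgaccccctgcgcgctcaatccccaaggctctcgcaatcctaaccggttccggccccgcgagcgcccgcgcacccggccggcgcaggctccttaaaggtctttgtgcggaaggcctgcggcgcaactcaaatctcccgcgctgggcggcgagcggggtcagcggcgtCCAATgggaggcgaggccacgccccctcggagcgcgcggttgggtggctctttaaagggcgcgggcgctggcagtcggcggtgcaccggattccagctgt
Cdc45: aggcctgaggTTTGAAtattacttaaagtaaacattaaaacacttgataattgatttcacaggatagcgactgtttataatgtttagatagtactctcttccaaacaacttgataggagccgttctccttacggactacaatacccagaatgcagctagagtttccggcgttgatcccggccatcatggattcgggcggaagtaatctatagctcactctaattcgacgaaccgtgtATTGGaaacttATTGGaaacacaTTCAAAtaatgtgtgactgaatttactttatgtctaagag
Rrm1: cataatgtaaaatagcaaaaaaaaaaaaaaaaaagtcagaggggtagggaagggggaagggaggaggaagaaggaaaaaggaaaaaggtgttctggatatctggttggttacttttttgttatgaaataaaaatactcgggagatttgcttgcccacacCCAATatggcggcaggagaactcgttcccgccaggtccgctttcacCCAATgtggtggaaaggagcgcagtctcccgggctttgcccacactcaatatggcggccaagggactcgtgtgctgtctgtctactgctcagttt
Bub1: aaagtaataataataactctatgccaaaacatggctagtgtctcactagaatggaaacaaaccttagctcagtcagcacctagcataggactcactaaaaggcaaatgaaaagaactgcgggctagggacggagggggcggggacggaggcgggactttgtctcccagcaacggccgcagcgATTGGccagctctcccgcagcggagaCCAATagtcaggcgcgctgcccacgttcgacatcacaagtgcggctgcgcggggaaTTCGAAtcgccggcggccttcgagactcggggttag
Cenpe: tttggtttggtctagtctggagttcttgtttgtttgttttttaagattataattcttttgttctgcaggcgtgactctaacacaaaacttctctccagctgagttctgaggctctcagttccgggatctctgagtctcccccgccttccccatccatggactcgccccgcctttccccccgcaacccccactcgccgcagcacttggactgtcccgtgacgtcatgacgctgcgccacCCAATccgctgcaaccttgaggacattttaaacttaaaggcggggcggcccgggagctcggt
Cdk1: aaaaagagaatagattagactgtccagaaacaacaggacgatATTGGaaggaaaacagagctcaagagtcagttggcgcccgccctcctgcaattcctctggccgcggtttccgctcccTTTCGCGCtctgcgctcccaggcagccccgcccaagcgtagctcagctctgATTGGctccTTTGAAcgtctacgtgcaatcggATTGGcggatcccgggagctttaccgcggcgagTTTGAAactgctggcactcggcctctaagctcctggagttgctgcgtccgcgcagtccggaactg
The Cdk1 promoter holds all 3 motifs, with CCAAT letters that begin 208, 80 and 48 bases before the start and CHR letters that begin 71 and 15 bases before it. Its E2F letters begin 131 bases before the start. Bub1 has CCAAT letters 68 and 42 bases before its start and CHR letters 14 bases after. Rrm2 has 1 CCAAT box, 50 bases before its start, and Rrm1 has 2, at 91 and 45. Cdc45 has CCAAT letters 13 and 2 bases before its start and CHR letters 240 bases before and 10 after it, and Cenpe has 1 CCAAT box 12 bases before its start.

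The D cyclins Ccnd1 and Ccnd2, which link growth signals to G1, had ratios of opposite sign on replicates 1, 3 and 4. Ccnd1 had log2 ratios of 0.94, 0.01, -0.13 and 0.28 on replicates 1 to 4. Ccnd2 had -0.79, 0.03, 0.36 and -0.34. Where Ccnd1 was high Ccnd2 was low, on replicates 1 and 4, and on replicate 3 the order was turned. The 10 spots of Ccnd1 lay between 0.76 and 1.09 on replicate 1 and between -0.25 and -0.04 on replicate 3, and the 3 spots of Ccnd2 lay between -0.93 and -0.67 and between 0.18 and 0.48. Their spots thus did not overlap between these arrays. Over arrays Ccnd1 had a mean of 0.28 ± 0.48 (SD, n = 4), or 0.01 without replicate 1. Ccnd2 had -0.18 ± 0.49, or 0.10 without replicate 1. Ccnd3 had 0.65, -0.32, 0.14 and -0.03, with the sign of Ccnd1 on replicate 1 and that of Ccnd2 on replicates 3 and 4. Cdk4, a partner of the D cyclins, had 0.04 ± 0.19. Cdk6, the other partner, had -0.01 ± 0.27, but its spots disagreed. On replicate 1 a spot of Cdk6 was at -1.10 and another at 0.54, both never dim.

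**Figure D3:**
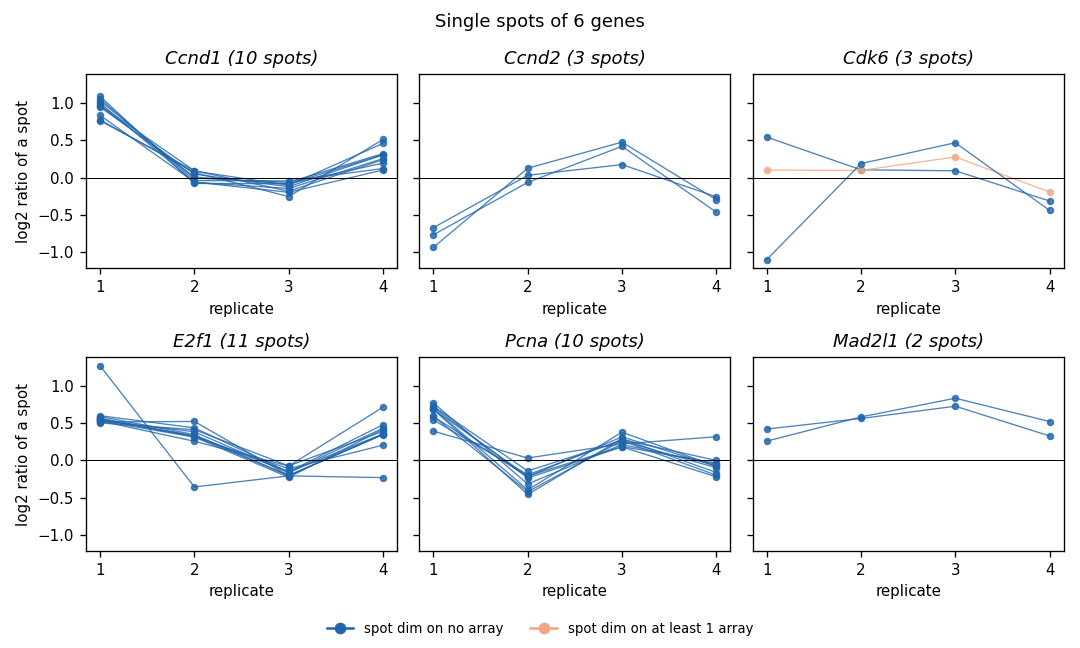
Log2 ratio (y axis) of single spots of 6 genes on the 4 arrays (x axis). A line joins the values of 1 spot and implies no order of the replicates, and colour tells spots that were dim on no array from the others. The 10 spots of Ccnd1 keep 1 profile, 1 spot each of E2f1 and Pcna departs from the others, and spots of Cdk6 on replicate 1 range from -1.10 to 0.54.

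E cyclins, which with Cdk2 start S phase, lay on the positive side. Ccne2 had 0.53, 0.10, 0.49 and 0.11 on replicates 1 to 4, and was positive on each. Its mean was 0.31 ± 0.23, with an unadjusted 95% interval from 0.16 to 0.46. Ccne1 had 0.73, -0.03, 0.12 and 0.50, with a mean of 0.33 ± 0.35. The paralogs shared a high replicate 1 and a low replicate 2 and parted on replicates 3 and 4. Cdk2 had 0.12 ± 0.13, and both of its spots were dim on some array. Cdc25a, the phosphatase that activates Cdk2, had 0.07 ± 0.26.

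The E2F factors that activate S phase genes were positive on replicate 1 and negative on replicate 3. E2f1 had 0.61, 0.30, -0.16 and 0.34 on replicates 1 to 4. E2f2 had 0.57, -0.20, -0.10 and 0.14, and E2f3 had 0.17, 0.23, -0.34 and 0.08. Their means were 0.27 ± 0.32, 0.10 ± 0.34 and 0.03 ± 0.26. Of the 11 spots of E2f1, all were positive on replicate 1 and negative on replicate 3. The spot at 1.27 on replicate 1 was at -0.36 on replicate 2, and the highest spot there was at 0.52.

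S phase enzymes were mostly positive, with no shared profile over the arrays. Rrm2, the regulated subunit of ribonucleotide reductase, had 0.98, 0.51, -0.08 and 0.65 on replicates 1 to 4, and a mean of 0.52 ± 0.44 with an unadjusted 95% interval from 0.01 to 1.03. Without replicate 1 the Rrm2 mean was 0.25. Its partner Rrm1 had 0.07, 0.23, 0.20 and 0.21, and a mean of 0.18 ± 0.07. Rrm1 was thus lowest on the array where Rrm2 was highest. Of the 2 spots of Rrm1, 1 was dim on all 4 arrays. The other was never dim, had a mean of 0.25 and was also lowest on replicate 1. Cdc45, part of the replicative helicase, had 0.51, 0.21, 0.25 and 0.03, and the checkpoint kinase Chek1 had 0.15, 0.32, 0.45 and 0.02. Both were positive on each array, with means of 0.25 ± 0.20 and 0.23 ± 0.19. Pcna, the sliding clamp of DNA polymerase, had 0.64, -0.26, 0.26 and -0.06 and followed the dye orientation. Tyms, which makes thymidylate, had 0.41 on replicate 4 and -0.28 to -0.05 on the others. The only spot of Tk1, the thymidine kinase of S phase, was dim on all 4 arrays, with a mean of 0.13 ± 0.11.

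Among genes of mitotic entry, Ccna2 and Ccnf had unadjusted 95% intervals above 0. Ccna2, the cyclin of S phase and G2, had 0.62, 0.17, 0.39 and -0.04 on replicates 1 to 4, with a mean of 0.29 ± 0.28. Ccnf, a cyclin that serves as a ubiquitin ligase subunit, had 0.39, -0.09, 0.43 and -0.08, with a mean of 0.16 ± 0.29. Ccna2 was negative on 1 array and Ccnf on 2. The signs of Ccnf alternated with the dye orientation, and its dye effect fitted in limma, 0.25, was above its mean. That of Ccna2 was 0.22. Both intervals are from the fit that takes out this dye effect. Cdk1, the mitotic kinase, had 0.45, 0.23, 0.04 and 0.11 and was positive on each array, with a mean of 0.21 ± 0.18. The B cyclin Ccnb2 had -0.10, 0.45, 0.13 and -0.64, the widest range of this group after Foxm1. Foxm1, the transcription factor of G2/M genes, had 1.09, 0.34, -0.17 and 0.39, and a mean of 0.41 ± 0.52, or 0.10 without replicate 1. Cdc25b and Cdc25c, phosphatases that activate Cdk1, had 0.02 ± 0.12 and 0.14 ± 0.33, and Wee1, the kinase that restrains it, had 0.16 ± 0.26.

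The spindle checkpoint, which holds anaphase until chromosomes are attached, included the gene with the highest mean of the 44 when the ratios are read as having 1 direction. Under the opposite reading the mean of this gene, Mad2l1, was 0.03 and that of Cdc20 was highest, at 0.38. Mad2l1 had 0.34, 0.57, 0.78 and 0.42 on replicates 1 to 4. Every value was positive, and so was every spot, the lowest being 0.26. The mean was 0.53 ± 0.19, with an unadjusted 95% interval from 0.27 to 0.79. Bub1, a checkpoint kinase, had -0.17, 0.59, 0.56 and 0.20, negative only on the array where most other genes were highest. Bub1b and Ttk, also checkpoint kinases, had 0.06 ± 0.21 and 0.08 ± 0.28, and both were negative on replicate 4 only. Cdc20, which the checkpoint inhibits, had 0.93, -0.27, 0.12 and -0.20, and Ube2c, an enzyme that works with the anaphase promoting complex, had 0.09 ± 0.18. Of the 2 spots of Ube2c, 1 was dim on all 4 arrays, and the never dim spot had a mean of 0.21.

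Mitotic kinases and chromosome proteins had no common profile over the arrays. Plk1 had 0.72 on replicate 1 and -0.04, -0.14 and -0.01 on replicates 2 to 4, so that its mean of 0.13 ± 0.39 was -0.08 without replicate 1. Mki67, the proliferation antigen Ki-67, had 0.52, 0.11, -0.50 and 0.17 with 2 spots close to each other. Birc5, the survivin of the chromosomal passenger complex, had 0.43, 0.75, -0.27 and 0.26. Mki67, Birc5, Foxm1, Cenpa, Ube2c and the E2F factors were all positive on replicate 1 and negative on replicate 3. So were Ccnd1, Cdc25a, Rrm2, Plk1, Cdc25b and Aurkb. The share of all genes with these signs was not computed, so the pattern does not set these genes apart. The Aurora kinases Aurka and Aurkb had 0.02 ± 0.08 and -0.01 ± 0.25. Cenpa, the histone of the centromere, had 0.21 ± 0.21, the kinetochore motor Cenpe had 0.22 ± 0.19 and Cenpf had 0.00 ± 0.12. Of the 2 spots of Cenpa, 1 was dim on all 4 arrays, and the never dim spot had a mean of 0.36. Plk4, the kinase of centriole duplication, and Top2a, the mitotic topoisomerase, had the lowest SDs between arrays, with means of 0.07 ± 0.03 and 0.14 ± 0.04. Their spots varied more than that, with SDs between spots of 0.18 and 0.26. With only the spots that were never dim, 2 for either gene, their means were 0.16 and 0.23. Cip2a, whose protein inhibits the phosphatase PP2A, belongs to neither phase and had 0.63, 0.29, 0.69 and 0.11. It was positive on each array, with a mean of 0.43 ± 0.28 and an unadjusted 95% interval from 0.25 to 0.60.

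How spots and arrays varied differed widely between genes. Of 25 genes with several spots, 13 had an SD between arrays above the SD between spots within an array, and the medians of these SDs were 0.23 and 0.13. The SD between arrays is that of averages over the spots of a gene and includes the dye effect. The SD between spots is that of single spots, so the measures are not alike. Ccnd1 had 0.48 between arrays against 0.10 between spots, and Pcna had 0.39 against 0.12. Chek1 and Mki67 also had spots that lay close together, at 0.04 and 0.11 against 0.19 and 0.42 between arrays. Cenpa and Cdk6 had the widest spread between spots, at 0.49 and 0.44, above their spread between arrays of 0.21 and 0.27. Of the 2 spots of Cenpa, 1 was dim on all 4 arrays. The spots of Ccnd1, and those of Pcna, were listed under 1 sequence record, while those of Cenpa and of Cdk6 were listed under more than 1. In 8 of the 25 genes the spot means had both signs. For E2f3, Plk4, Top2a, Tyms and Ube2c, every spot of 1 of the signs was dim on all 4 arrays. Cenpf had 1 spot that was dim on 1 array. Only Cdc25b and Cdk6 had both signs among spots that were never dim.

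Some of the ratios went with the dye. The signs of 8 genes, or 18.2%, alternated with the dye orientation, against 21.3% of all genes. They are Ccnd3, Cdk4, Pcna, Ccnf, Cdc20, Cdc25c, Aurka and Cenpf, each higher on replicates 1 and 3. The dye effect was largest for Cdc20, at 0.38, and was 0.30 for Pcna and 0.28 for Cdc25c. Birc5 had the lowest, at -0.21. The median dye effect was 0.06 over the 44 genes and 0.00 over all genes. It was above 0 for 31 of the 44, and the share of all genes above 0 was not computed. If the deposited ratios were not already turned to 1 direction, these 31 would be the genes on the positive side, with a median of 0.06. At an unadjusted p under 0.05 in limma there would then be 6 of the 44 genes, all on the positive side, against 4.72% of all genes on that side. The number past the adjusted threshold would be 0.

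**Figure D4:**
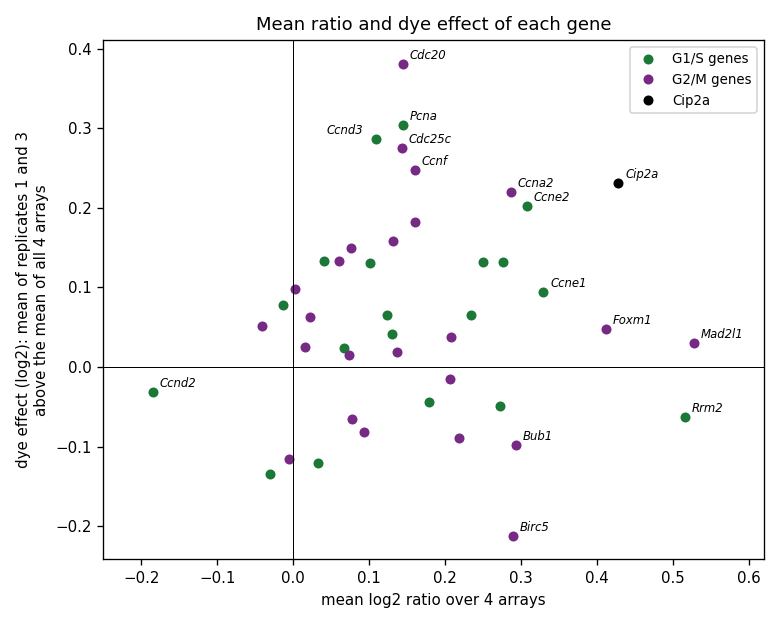
Mean log2 ratio over 4 arrays (x axis) and dye effect (y axis, log2) of each gene, with G1/S genes in green, G2/M genes in purple and Cip2a in black. Genes far from 0 on either axis are named. Mad2l1 and Rrm2 lie far right with a dye effect near 0, and Cdc20 has the largest dye effect, 0.38.

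Of the other cell cycle lists, those of the spindle, fork and DREAM complex had a positive mean in 92.3%, 89.3% and 84.6% of genes. That share was 63.6% for CDK inhibitors and pocket proteins, 60% for the anaphase promoting complex and 49.5% over all genes. These lists too were chosen with earlier results of these data known. Of 26 measured genes of the kinetochore, spindle and cytokinesis, 24 had a positive mean, 9 were positive on all 4 arrays and 8 had an unadjusted p under 0.05 on the positive side, with a median of 0.14. Over all genes 4.37% were positive on all 4 arrays, and 1.59% and 2.05% were on the positive and negative side at that p. Ect2, which starts cytokinesis, had 0.34 ± 0.25 and the kinetochore protein Spc25 had 0.40 ± 0.19, both positive on each array. Of 28 genes of the replication fork, 25 had a positive mean, with a median of 0.12, 4 on the positive side and 1 on the negative side at that p. The clamp loader Rfc5 had 0.33 ± 0.11 and the single strand binding protein Rpa1 had 0.26 ± 0.19. The median of the fork genes was 0.32 on replicate 1 but -0.01 on replicate 3, while S phase genes of the main list had 0.20 there. CDK inhibitors and pocket proteins, which brake the cycle, had a median of 0.02 with 7 of 11 positive and 0 past that p in either direction. Cdkn1a, the p21 inhibitor, had 0.33, -0.47, 0.07 and -0.41 on replicates 1 to 4, and Cdkn2c had 0.20 ± 0.39. Subunits and partners of the anaphase promoting complex had a median of 0.02, with 9 of 15 positive, 0 past that p, Anapc13 at -0.22 ± 0.34 and Anapc10 at 0.10 ± 0.08. For the DREAM complex and other E2F genes the median was 0.05, with 11 of 13 positive, 0 past that p, and Lin54 and Tfdp1 at 0.14 ± 0.08 and 0.14 ± 0.17. None of these genes passed the adjusted threshold.

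**Figure D5:**
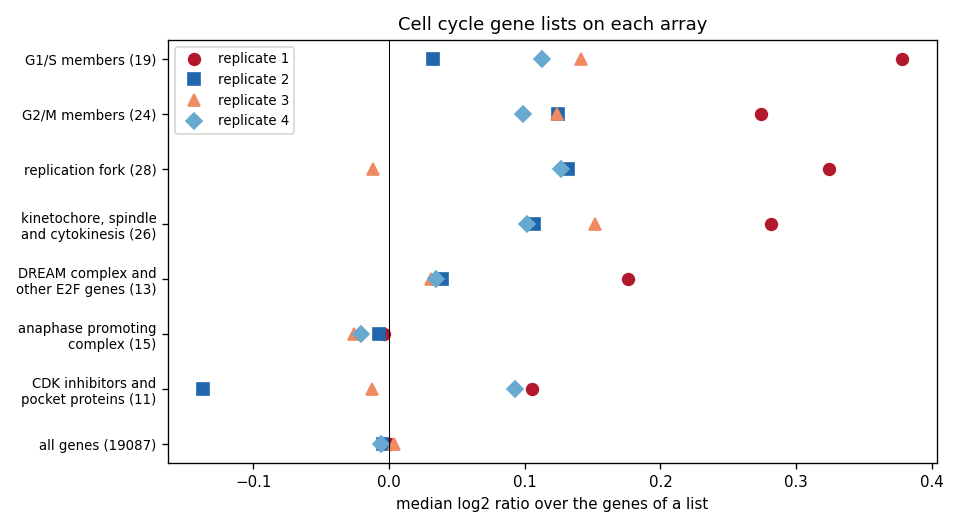
Median log2 ratio over the genes of a list (x axis) on each array (points), for the G1/S and G2/M genes, other cell cycle lists and all genes (y axis, with the number of genes). Replicate 1 is highest for 5 lists by a clear gap, the G1/S, G2/M, fork, spindle and DREAM lists, and the 4 points of the anaphase promoting complex lie near 0.

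Ratios do not give levels, so whether a marker gene is present could not be read directly. Of 13 fibroblast markers 9 had a spot that was never dim, against 0 of 6 epithelial, 0 of 5 endothelial and 3 of 5 measured leukocyte markers. Over all genes 9774 of 19087 had such a spot. Vim, Thy1, Dcn and Lum were the fibroblast markers without such a spot. The fibroblast markers had medians of 0.11, -0.15, -0.05 and 0.18 on replicates 1 to 4, and the collagen Col1a1 had 2.51, -0.02, 0.84 and 1.12 in the same order. The receptor Pdgfrb had -0.44, -0.14, -0.49 and -0.79, negative on each array, and 6 of the 13 fibroblast markers had a positive mean. Both genes were chosen after their values were seen. The medians of the other marker lists lay between -0.09 and 0.05 on every array. Their part in the ratios of the cell cycle genes was not tested.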

How the data were processed

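The deposited values are log ratios of the 2 channels, 1 per spot and array, and were taken as log2. The authors made them with limma (no version given), per the submitters' processing notes. The sources used here do not give the log base, the background correction or any filter, and brightness and depth are not known. The number of arrays limits the precision. Of 45220 spots, 33653 have 1 gene in the platform annotation, with symbols updated through gene IDs of RefSeq GRCm38.p6. Spots are called dim on an array where at least 3 spots share their exact value, and that such ties mark low signal is an assumption. Of 171 spots with no gene and a ratio of at least 0.6 in size on all 4 arrays, 163 alternated in sign with the dye. The deposited ratios were read as all having 1 direction. This is an assumption: line differences in ratios that were not turned would alternate too, arrays of opposite orientation correlated at -0.24 to -0.17 over spots, and the opposite reading gave 901 positive and 812 negative genes at an unadjusted p under 0.05, against 303 and 391. The mean ratio and a dye effect were fitted for all 19087 genes in limma 3.58.1 under R 4.3.3, with Benjamini-Hochberg adjustment over all genes and a threshold of 0.05. The fit has 2 residual degrees of freedom and was tested on simulated data. SDs are over 4 arrays and include the dye effect. P-values set the mean ratio against the spread between these pairs of cultures that is left after the dye effect, moderated over all genes. Members and lists were chosen with earlier results of these data known. The text names every measured member, the 2 genes of smallest p of each other list, and 3 promoters per phase by absolute mean ratio.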

Additional observations from a re-analysis of the deposited data

Results flagged for a closer look

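In 4 of 70 genes and list medians, 1 array lay far from the other 3 by Dixon's criterion, which chance meets in about 1 in 20 groups. Each time it was replicate 1. Plk1 had 0.716 there, the median of the 44 genes was 0.358, the median of the G2/M genes was 0.274 and that of the DREAM complex and other E2F genes was 0.176. The cases of Plk1, the G2/M genes and the 44 genes overlap, since each is part of the next.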

How the results depend on the processing

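No member passed the adjusted threshold under any alternative run, and the smallest adjusted p of a member was 0.450, without replicate 3. The count at an unadjusted p under 0.05, 8 with all spots and arrays, was 4 with only spots dim on no array and 5 with only genes that have such a spot, against 0.982% and 1.30% of 9774 genes on the positive side. Both leave 42 members. Leaving out single replicates gave 4 to 17. The cause of these shifts was not tested. The median of the means, 0.14, was between 0.06 (opposite reading of the ratios) and 0.19 (without replicate 3), and 31 to 40 members had a positive mean. The difference between G2/M and G1/S medians lay between -0.05 (without replicate 2) and 0.06 (without replicate 4), and thus took both signs. It was 0.01 without genes at the border of the phases and 0.00 from means over genes. Single members changed sign in 12 cases under the opposite reading, 11 without replicate 1, 6, 4 and 3 without replicates 2, 3 and 4, and at most 1 under the other alternatives. Of the 8 members at the unadjusted p under 0.05, Rrm1 and Rrm2 changed sign, only under the opposite reading. No separate paired analysis applies, since each array is itself a pair.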

Other observations

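The columns of the 2 dye orientations were written with different precision. On replicates 1 and 3, 44917 and 44642 of 45220 values have more than 6 significant digits, and on replicates 2 and 4 the number is 0. Over all spots replicates 2 and 4 correlated at 0.27 and replicates 1 and 3 at -0.00, although both pairs share a dye orientation. These values describe the files across spots, which are not independent, and their part in the ratios was not tested.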
